A study of Mus musculus with 2 samples.

Results

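The Igf2r and Airn imprinted domain of mouse chromosome 17 was taken as the 190 kb from 12870001 to 13060000 (mm9), and every cytosine listed there was kept. It held 1539 of the 13025343 cytosines in the deposited table, or 0.280% of those on chromosome 17. They carried 18512 of 176006227 reads. The study mapped 5-hydroxymethylcytosine (5hmC) in DNA of the mouse embryonic stem cell line E14, here at passage 12. There was 1 group, with 2 libraries labelled as replicates. DNA was glucosylated and cut with AbaSI, an endonuclease that recognises the glucosylated form of 5hmC, and the cut ends were sequenced. The table gives 1 read count per listed cytosine for both libraries together, so no value has a replicate error and no test between samples was possible. Intervals below are exact 95% counting intervals. They do not cover PCR copies, which are not independent molecules, the clustering of reads on single or paired sites, or differences between cultures.

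Igf2r encodes the cation-independent mannose 6-phosphate receptor, which carries lysosomal enzymes and removes the growth factor IGF2 from the cell surface. In most mouse tissues it is expressed from the maternal chromosome. Airn is a long non-coding RNA that starts inside Igf2r, runs antisense to it across the Igf2r promoter, and is transcribed from the paternal chromosome, where its transcription silences Igf2r. The Airn promoter region is the imprint control element of the domain and carries DNA methylation inherited from the egg. Undifferentiated mouse embryonic stem cells are known to express Igf2r from both chromosomes, with Airn rising on differentiation. TET enzymes make 5hmC from 5-methylcytosine. The counts do not separate the parental chromosomes.

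Igf2r was placed at about 12875300 to 12962600 on the minus strand, and Airn was taken to start near 12934000 on the plus strand. Both starts are approximate. In the RefSeq gene order of GRCm38.p6, Igf2r and Airn are followed to the right by pseudogenes and then by Mas1, a G protein-coupled receptor gene. Mrgprh, Pnldc1, Mrpl18 and Tcp1 come next. These genes were not placed on the table's build, so whether any of them lies inside the domain is not known. Their RefSeq order is given for orientation.

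The 250 bases before the RefSeq starts of the 2 genes differ in how many CG dinucleotides they hold, and CG is the context of nearly all listed sites. Bases after the starts were not counted. The CG content of the whole promoter regions, including the imprint control element at Airn, is therefore not given. The 250 bases before each RefSeq start (GRCm38.p6) are shown with every CG in capitals, because any listed CG dyad must lie on such a dinucleotide. Igf2r has 27 of them at chr17:12769707-12769956 on the minus strand, and Airn has 2 at chr17:12741061-12741310 on the plus strand.
Igf2r: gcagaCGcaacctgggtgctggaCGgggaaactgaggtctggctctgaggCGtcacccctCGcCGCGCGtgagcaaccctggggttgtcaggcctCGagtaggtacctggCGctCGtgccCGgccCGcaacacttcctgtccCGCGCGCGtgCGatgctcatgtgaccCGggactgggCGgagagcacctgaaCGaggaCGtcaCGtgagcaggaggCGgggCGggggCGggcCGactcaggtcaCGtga
Airn: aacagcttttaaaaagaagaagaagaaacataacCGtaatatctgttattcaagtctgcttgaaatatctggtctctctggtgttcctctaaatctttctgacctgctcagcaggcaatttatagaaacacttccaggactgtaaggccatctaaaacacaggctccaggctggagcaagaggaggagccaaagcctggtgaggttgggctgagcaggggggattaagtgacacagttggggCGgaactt
Of 32841 RefSeq promoters compared over the same length, 91.4% had fewer CG than Igf2r and 18.8% had fewer than Airn, against a median of 6. At least 27 were found in 8.57% of promoters, and at least 2 in 81.2%. CG reads the same on both strands. GC content was 69.2% for Igf2r and 45.6% for Airn. These sequences are of another build than the table, so single CG were not matched to listed sites. The starts used on the table are approximate and are not spaced as in RefSeq. The table windows below may therefore largely cover other bases than those shown. In the table, the 250 bases to the right of the approximate Igf2r start held 5 listed CG dyads, each on 1 strand, with 7 to 14 reads. The 250 bases to the left of the approximate Airn start held 1 dyad, listed on both strands with 12 and 24 reads.

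The domain carried 5hmC reads along nearly its whole length, at a level above the chromosome average but well inside the range of chromosome 17. It had 8.10 listed sites per kb (7.70 to 8.52) and 97.4 reads per kb (96.0 to 98.8). The rest of chromosome 17 had 5.95 sites and 79.6 reads per kb, which makes the domain 1.36 times higher in sites (1.29 to 1.43) and 1.22 times higher in reads (1.21 to 1.24). When chromosome 17 was divided into 484 windows of 190 kb, 324 had fewer reads than the domain and 159 had more. The median window held 11343.5 reads and the highest 76067. The median listed site had 9 reads, with quartiles of 5 and 15, against 10 reads on the whole chromosome, so sites were more frequent here and not deeper.

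**Figure D1:**
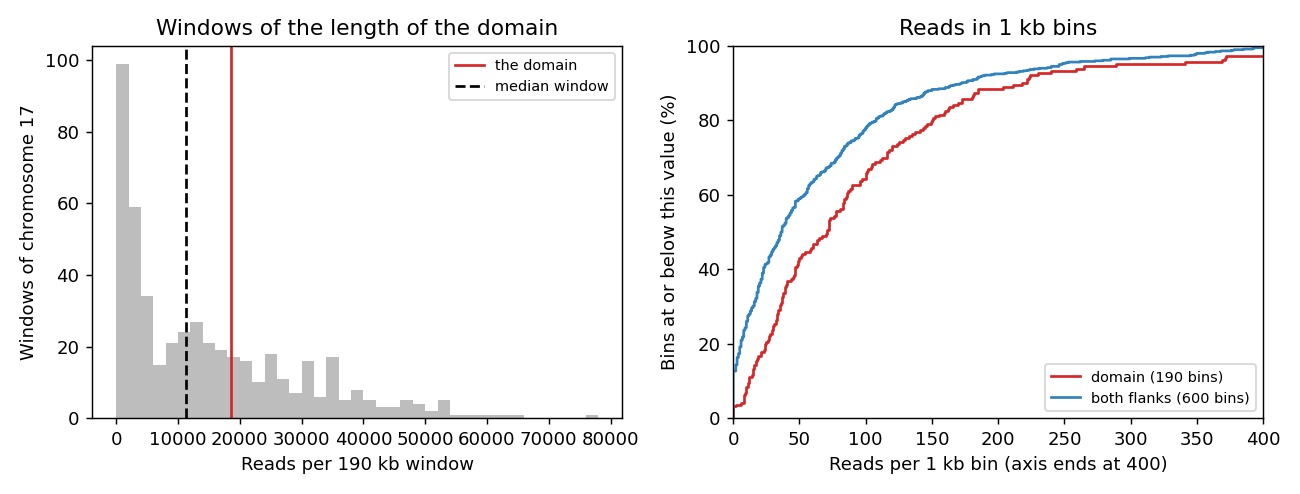
Left, the number of chromosome 17 windows of 190 kb by their reads, with the domain (red line, 18512 reads) and the median window (dashed line, 11343.5 reads); right, the percentage of 1 kb bins at or below each read count in the domain (red, 190 bins) and in both flanks (blue, 600 bins). The domain lies to the right of the median window, and its bins hold more reads than those of the flanks over most of the range.

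The comparison with the neighbourhood depended on the side and on the distance. Against both flanks of 300 kb, with 66.9 reads per kb, the domain was 1.46 times higher in reads (1.43 to 1.48) and 1.38 times higher in sites (1.30 to 1.47). The left flank had 62.1 reads per kb and the right flank 71.6. The right flank was uneven, with 133.3 reads per kb in the 100 kb next to the domain and 40.8 in the outer 200 kb. With flanks of 100 kb the ratio was 1.002 in reads and 1.03 in sites. The domain was thus higher than its left neighbour (1.59 times in reads, 1.55 to 1.64) and lower than its right neighbour (0.731 times, 0.715 to 0.747). Of the 10 segments of 10 kb with the most reads in the domain and flanks together, 4 were in the domain. The domain covers 190 kb and the flanks 600 kb. The first of all was 13080001 to 13090000 in the right flank, with 2434 reads on 177 sites.

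**Figure D2:**
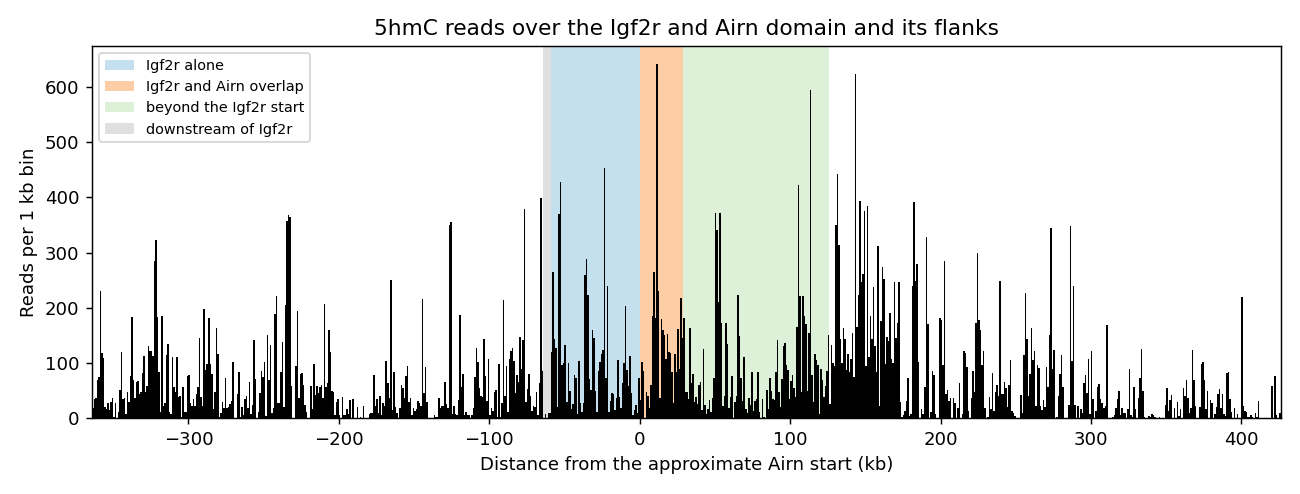
Reads per 1 kb bin (vertical axis) by distance in kb from the approximate Airn start (horizontal axis), for the domain (shaded by segment) and 300 kb on each side. Tall bins occur in all 3 main segments, and a block of high bins continues past the right end of the domain, where the nearest 100 kb had 133.3 reads per kb.

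In 1 kb bins, 5hmC was spread over almost all of the domain. Of its 190 bins, 6 had no listed site, or 3.16% (1.17 to 6.75), against a background of 26.5% of the bins of chromosome 17. The left flank had 7.67% and the right flank 17.7% without a site. The median bin of the domain held 71 reads on 7 sites, and the median bin of the chromosome 22 reads on 3 sites. More than 2 times that chromosome median was found in 119 of the 190 bins, or 62.6% (55.3 to 69.5), where the background was 39.3%. The empty bins were single, and 5 of them began at 12870001, 12872001, 12937001, 12996001 and 13014001. The first pair lies downstream of the Igf2r end and the third about 3 kb inside Airn. The sixth, at 13017001, was tied with them in length. A bin without a listed site is not a measured absence of 5hmC, since the authors' minimum for listing is not known and neither mappability nor CG content of the bins was analysed here.

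The domain was cut at the approximate gene ends into 4 segments, which differed more in reads than in sites. The 5.30 kb downstream of the Igf2r end held 6 sites and 39 reads, or 7.36 reads per kb (5.23 to 10.1). The 58.7 kb of Igf2r that Airn does not overlap had 101.1 reads per kb (98.6 to 103.7). The 28.6 kb in which Airn runs antisense to Igf2r had 129.8 reads per kb (125.7 to 134.1). Beyond the Igf2r start, the 97.4 kb up to the right end of the domain, into which Airn continues, had 90.6 reads per kb (88.7 to 92.5). The order in reads was therefore overlap, Igf2r alone, beyond the Igf2r start, and downstream. The counting intervals do not meet, but they treat every read as independent. Steps of 10 kb beyond the Igf2r start ran from 27.7 to 191 reads per kb, a spread wider than the differences among the segments.

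Sites did not separate the overlap from Igf2r alone. The other segments kept their order, with 7.62 sites per kb beyond the Igf2r start and 1.13 downstream. Igf2r alone had 9.10 sites per kb (8.34 to 9.90) and the overlap 8.99 (7.92 to 10.2), a ratio of 0.988 (0.848 to 1.15). The excess of reads in the overlap, 1.28 times (1.23 to 1.34), came with a median of 11 reads per site there and 8 in Igf2r alone. It was 1.17 times without the 1 kb bin with the most reads of each segment, and 1.41 times without the paired classes 2CG and 2CH described below. With at least 10 reads required per site, the overlap also had more sites, 1.47 times those of Igf2r alone. Whole Igf2r had 111 reads per kb, 1.22 times the part beyond its start (1.19 to 1.26), and 9.06 sites per kb, 1.19 times (1.07 to 1.32).

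Along Igf2r, reads were highest in the second and the last part of the gene. They were lowest in the fourth, which holds the approximate Airn start but lies mostly to its left. The gene was divided into 10 equal parts of 8.73 kb, numbered in the direction of transcription. The second part had 198 reads per kb (189 to 208) and the tenth, at the end of the gene, 190 (181 to 199), and these intervals overlap. The second part includes the paired 2CG sites 12945888 and 12945911, described below, each counted in full with 173 reads. The fourth part, from 12927682 to 12936411, holds the approximate Airn start and had 42.3 reads per kb (38.1 to 46.8), the fewest of the 10. It also had the fewest sites, 4.93 per kb (3.56 to 6.63), and a median of 7 reads per site. The ninth and sixth parts followed with 58.8 and 60.6 reads per kb, intervals that overlap each other but not that of the fourth. Most of the fourth part lies to the left of the approximate Airn start. Its 1 kb bins there, from 12928001 to 12934000, held 45, 6, 15, 24, 9 and 72 reads. Those from 12934001 to 12936000, inside Airn, held 33 and 102.

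High parts were not alike in how they reached their level. The tenth part had 16.5 sites per kb (13.9 to 19.4), more than any of the other 9, with a median of 10 reads per site. The second part had 10.997 sites per kb (8.91 to 13.4), an interval that meets those of 6 others, but the highest median, 13 reads per site. Of its dyads, 50% were listed on both strands, against 15.2% in the fourth part and 13.3% in the sixth. The first part, at the Igf2r start, had 109 reads per kb (102 to 116) on 8.02 sites per kb.

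**Figure D3:**
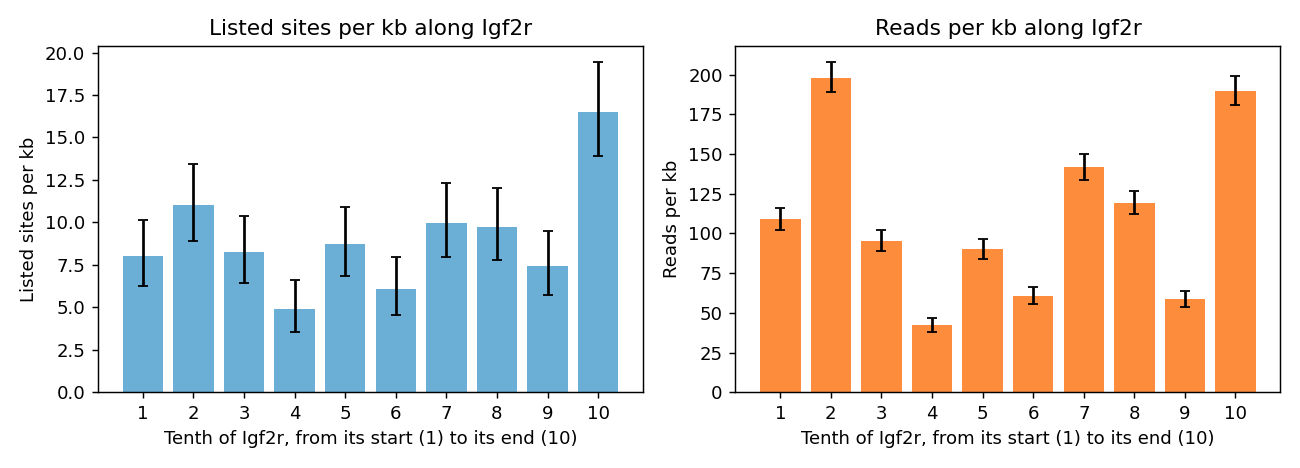
Listed sites per kb (left) and reads per kb (right) in 10 equal parts of Igf2r, from its start (1) to its end (10), with bars for exact 95% Poisson counting intervals of the pooled table. Parts 2 and 10 have the most reads (198 and 190 per kb). Part 4, which holds the approximate Airn start but lies mostly to its left, has the fewest (42.3 per kb).

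The region around the approximate Airn start had fewer sites and reads than most of the domain. The extent of the imprint control element was not placed on the table, so these values are not a measure of the element itself. Within 2 kb on each side of 12934000 there were 23 sites with 216 reads, or 54.0 reads per kb (47.0 to 61.7) and 5.75 sites per kb (3.65 to 8.63). Counts per site ran from 3 to 24 with a median of 8. Of 47 windows of 4 kb that tile the domain, 14 had fewer reads and 13 fewer sites. Of all such windows on chromosome 17, 58.6% had fewer reads and 60.2% fewer sites. The region was thus low for the domain and near the middle for the chromosome. Within 5 kb on each side the level was 39.3 reads per kb (35.5 to 43.4). The bin from 12934001 to 12935000 held 6 sites on 6 dyads with 33 reads, and no site above 8.

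The sites nearest to the Airn start were as follows. To the left lay a dyad at 12933891 with 12 plus-strand and 24 minus-strand reads, and the next listed site to the right was a minus-strand CG at 12934435 with 8 reads. The 542 bases between were without a listed site. Of the gaps between neighbouring listed sites in the domain, 4.10% were longer, and on chromosome 17 6.10% were. In steps of 500 bp, the 5 kb before the start held 0, 6, 12, 3, 24, 0, 0, 9, 36 and 36 reads. The first 1.5 kb of Airn held 13, 20 and 32. Further into Airn, reads per 500 bp reached 70 and 61 between 1.5 and 2.5 kb from the start, then were 24, 0 and 0 in the next 3 steps and 18 and 29 up to 5 kb. Moving the assumed start by 500 bp to the left or right gave 36.5 or 69.3 reads per kb in place of 54.0, so the value depends on a position known only approximately.

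The region of the Igf2r start was richer, with an empty stretch at the start itself. Within 2 kb on each side of 12962600 there were 52 sites with 619 reads, or 155 reads per kb (143 to 167), and the median count was 10.5. This was 2.87 times the reads around the Airn start (2.45 to 3.36). Of the 47 windows of 4 kb in the domain 38 had fewer reads, and on chromosome 17 82.0% did. With 5 kb on each side the level was 109.8 reads per kb. Moving the start by 500 bp in either direction left it at 152 reads per kb.

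The last listed cytosine inside Igf2r was at 12962072 with 3 reads, and the first on the other side was at 12962707 with 8. Between them 634 bases had no listed site, about 528 of them on the gene side of the approximate start. Gaps longer than this made up 3.32% of those in the domain and 5.02% of those on the chromosome. Of 500 bp bins, 39.4% on chromosome 17 had no listed site, and 47 of the 380 in the domain (12.4%) had none. The CG content of the empty 500 bp downstream of the start was not analysed. Whether they are unusual for their sequence is therefore not known. The 500 bp just upstream of the start held 13 sites with 127 reads, and the 500 bp before those 12 sites with 139 reads. The highest count there was 28 reads, at the plus strand of 12962856, whose minus-strand partner had 13. On the gene side, reads began again 500 to 1000 bp into Igf2r with 8 sites and 120 reads.

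**Figure D4:**
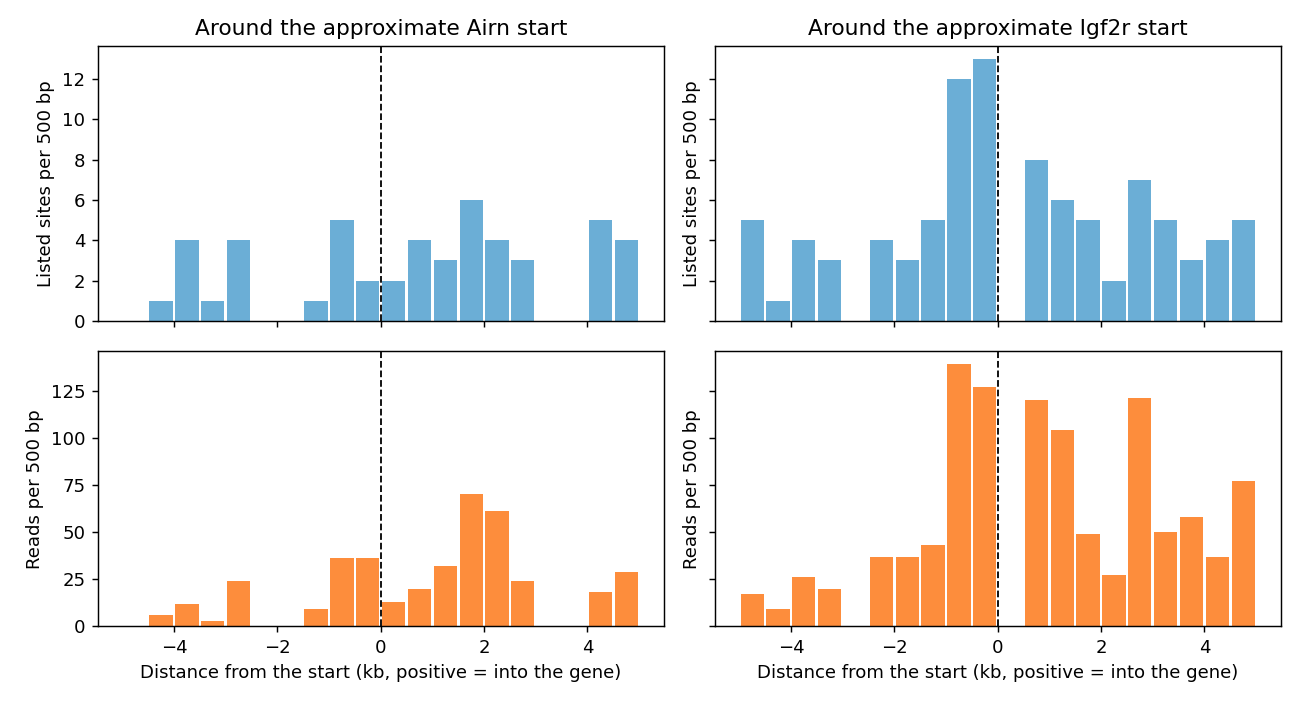
Listed sites (top) and reads (bottom) per 500 bp by distance in kb from the approximate Airn start (left) and Igf2r start (right), with positive distances inside the gene. The first 500 bp of Igf2r have no listed site while the 500 bp before them hold 127 reads, and no bin around the Airn start exceeds 70 reads.

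Beyond the Igf2r start, reads came in blocks. Airn continues into this part, but its end was not placed on the table. In steps of 10 kb, the first had 83.9 reads per kb (78.3 to 89.8) and the next 38.5 (34.7 to 42.5). The third step, from 12982602 to 12992601, had 191 reads per kb (183 to 200) on 12.0 sites per kb, with a median of 13 reads per site. The sixth, from 13012602 to 13022601, had 27.7 reads per kb (24.5 to 31.2), the lowest of the 10 steps. It contains the longest gap of the domain, 2101 bases between 13016260 and 13018362. The eighth and ninth steps rose again to 127 and 165 reads per kb. Of their dyads 42.2% and 43.8% were listed on both strands, compared with 48.7% in the third step and 10.8% in the second.

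The 10 bins of 1 kb with the most reads held 23.1% of the domain's reads on 14.3% of its sites. The first was 12945001 to 12946000, about 11 kb inside Airn and within Igf2r, with 642 reads on 23 sites. It was followed by 13047001 to 13048000 with 595 reads on 31 sites, and by 12910001 to 12911000 with 453 reads on 13 sites. The next bins, beginning at 12881001 and 13039001, had 428 reads on 33 sites and 423 reads on 27 sites. Then came the bins beginning at 12987001, 12984001, 12880001, 12985001 and 12898001, with 372, 371, 369, 341 and 289 reads. In all, 4 of the 10 lay in Igf2r alone, 1 in the overlap and 5 beyond the Igf2r start. Of the domain's 190 bins, 58 lie wholly in Igf2r alone, 28 in the overlap and 97 beyond the Igf2r start. The 10 were thus divided about as all bins are.

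The share of a bin's reads held by its highest cytosine varied over a continuous range among these 10 bins. It was 40.6% in the bin at 12910001, 37.0% at 12898001 and 26.9% at 12945001. The bins at 12984001, 12987001, 12880001 and 12985001 lay between, with 20.2%, 14.8%, 13.01% and 12.3%. It was 8.98% at 13039001, 8.64% at 12881001 and 7.06% at 13047001, where the reads were spread over 27 to 33 sites per bin.

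The single sites with the most reads all belonged to the class coded 2CG, which the table lists mostly as pairs of cytosines on opposite strands. The highest pair was the plus-strand CG at 12910182 and the minus-strand CG at 12910204, each with 184 reads. The next was 12945888 and 12945911, each with 173 reads. The fifth site was the minus-strand CG at 12898416 with 107 reads, and its partner at 12898394 had 96. In the domain, 41 of 48 plus-strand 2CG sites (85.4%) had a minus-strand 2CG site 21 to 25 bp to the right, and in 34 of these 41 pairs the counts were equal. Both members of each pair were counted in full in the main read values and intervals, although equal counts may not be independent measurements. The 97 sites of the class held 15.2% of the domain's reads. They made up 6.30% of its sites (5.14 to 7.64), against 8.11% on chromosome 17.

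**Figure D5:**
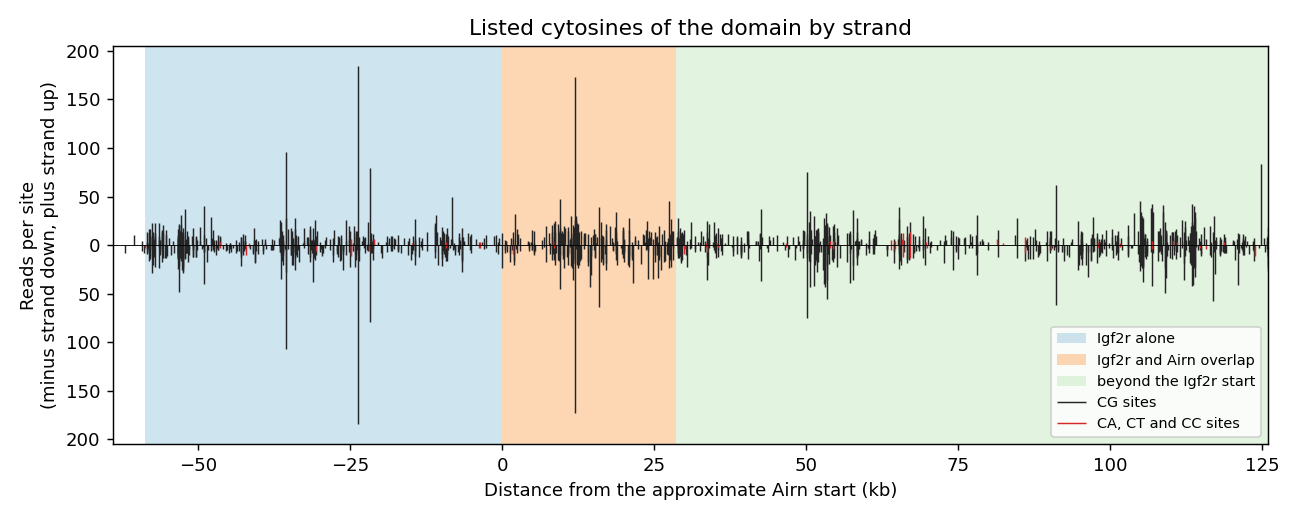
Reads at each listed cytosine of the domain (vertical axis, plus strand upward and minus strand downward) by distance in kb from the approximate Airn start, with CG sites in black and other contexts in red. The mirrored tall lines are 2CG pairs such as 12910182 and 12910204 with 184 reads each.

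CG dyads, the CG on both strands of the same position, were mostly listed on 1 strand. The domain had 1107 dyads with a listed site, of which 369 were listed on both strands, 376 on the plus strand alone and 362 on the minus strand alone. This is 33.3% (30.6 to 36.2) on both strands, where the background of chromosome 17 was 38.0%. The count per dyad moved with it, with a median of 11 reads in the domain and 13 on the chromosome. Among dyads with at least 20 reads, the shares were 75.3% (70.1 to 80.1) and 76.6%, and their intervals overlap. By segment, Igf2r alone had 27.7% (23.4 to 32.4) with a median of 9.5 reads per dyad, and the overlap had 38.0% (31.0 to 45.5) with a median of 15. With at least 20 reads they had 67.0% (56.6 to 76.4) and 79.7% (68.3 to 88.4), again overlapping.

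The dyads with the most reads over both strands were at 12945910 with 199, at 12945888 with 191 and at 12910203 with 190. Most of each count was on 1 strand, 173 of 199, 173 of 191 and 184 of 190 reads, which are members of the 2CG pairs above. The sixth dyad, at 12949894 inside the overlap, was more even, with 39 plus-strand and 64 minus-strand reads. So was the eighth, at 12987308 beyond the Igf2r start, with 33 and 55. Those at 12910182, 12898415, 12898394 and 13058700 were listed on 1 strand, with 184, 107, 96 and 83 reads. The tenth, at 12984052, had 6 plus-strand and 75 minus-strand reads. Of the 369 dyads on both strands, 21.4% (17.3 to 25.95) differed by more than 3-fold between strands, against 22.3% on the chromosome.

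Igf2r and Airn are transcribed in opposite directions, and the strands were listed about equally. The plus strand held 50.3% of the sites (47.8 to 52.8) and 49.5% of the reads (48.8 to 50.2). In Igf2r alone it held 49.1% of the reads (47.8 to 50.3), in the overlap 49.1% (47.5 to 50.7), and beyond the Igf2r start 50.1% (49.0 to 51.1). All these intervals include equal shares. Those of the flanks do not, with 51.5% of the reads (50.8 to 52.3) on the left and 47.9% (47.2 to 48.6) on the right. The intervals treat every read as independent.

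Nearly all listed cytosines of the domain were CG. They made up 1476 of 1539 sites, or 95.9% (94.8 to 96.8), against 94.0% on chromosome 17. The share was 98.8% (96.6 to 99.8) in the overlap and 94.5% (92.6 to 96.0) beyond the Igf2r start. The other 63 sites were 34 CA, 22 CT and 7 CC cytosines, with a median of 4 reads against 9 at CG. They lay in 36 of the 190 bins. Listed dyads were 87 bp apart at the median (75 bp on the chromosome), and 76.2% (73.6 to 78.7) had another within 100 bp, against 77.4%. In Igf2r alone the share was 81.7% (77.6 to 85.3), and beyond the Igf2r start 73.0% (69.0 to 76.8).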

How the data were processed

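The authors deposited raw read counts, 1 whole number for each listed cytosine, in 1 table for both libraries, with position, dinucleotide, strand and a class code. CASAVA 1.8.2 and Bowtie were used with build mm9, per the submitters' processing notes. Read filters, treatment of PCR copies, the minimum for listing, the meaning of the class codes and how the libraries were joined were not given in the sources used here. Every listed count was at least 2. Positions are printed 1-based.

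Sites with a table start from 12870000 to 13060000 were kept, and the 0 sites at the last position changed nothing. Bins, segments, dyads and windows were counted with Python 3.11.15, numpy 2.4.6, pandas 2.3.3 and scipy 1.17.1. Counts have exact Poisson, shares exact Clopper-Pearson and ratios exact conditional binomial intervals at 95%. The functions were tested on simulated dyads. Nothing in the labels says whether the libraries came from separate cultures. No test between samples was made. The rule for named items took the 10 bins and 10 dyads with the most reads, the 5 highest sites and the 5 longest empty runs. The domain and lists were chosen with earlier results of these data known. Alternatives were read minimums of 5 and 10, a weight of 0.5 for 2CG and 2CH reads, the top 0.1% of sites left out, CG alone, other bins, flanks and windows, and, chosen after seeing the data, sites without 2CG and 2CH or bins without the highest. Promoters are RefSeq sequences of GRCm38.p6. Gene models and sequence of mm9 were not used here.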

Additional observations from a re-analysis of the deposited data

How the results depend on the processing

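For 14 results, 65 alternative values were computed; 40 lay inside the counting interval of the reported value and 25 outside. No paired analysis was possible because the table pools both libraries in 1 count column, and for the same reason no library could be left out. Where a value moved, the cause was not tested. With at least 10 reads per site, the domain over the rest of chromosome 17 was 1.22 in sites and 1.15 in reads, the domain over both flanks was 1.51 in reads, the overlap over Igf2r alone was 1.47 in sites and 1.55 in reads, 18.9% of bins were empty (47.2% on chromosome 17), 22.95% of dyads were on both strands (27.2%) and CG made up 99.0% of sites. With at least 5 reads, 29.7% of dyads were on both strands (35.1%). Without the top 0.1% of sites, the read ratios to the chromosome and to the flanks were 1.20 and 1.40. With CG sites alone the read ratio to the chromosome was 1.25. Flanks of 100 kb gave ratios of 1.03 in sites and 1.002 in reads. The read ratio of overlap to Igf2r alone was 1.34 with a weight of 0.5 for 2CG and 2CH, 1.41 without them and 1.17 without the highest bin of each segment. Bins of 500 bp and 2 kb were empty in 12.4% and 0% of cases (39.4% and 15.8% on chromosome 17). Reads per kb at the Airn start were 39.3 with 5 kb on each side, and 36.5 and 69.3 with the start moved 500 bp left and right. At the Igf2r start they were 193 and 109.8 with 1 kb and 5 kb on each side. A neighbour within 50 bp was found for 58.4% of dyads. Within 2 kb of the starts, single sites rest on 3 to 45 reads.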

Other observations

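The values here were chosen after they were seen and are given without a test. Non-CG cytosines were densest in the 10 kb from 12994001 to 13004000, where 11 of 77 listed sites (14.3%) were CA, CT or CC. These 10 kb lie beyond the Igf2r start and begin about 60 kb to the right of the approximate Airn start. Of the 11, 10 had the class code 2CH and 6 were CA, with a median of 5 and at most 13 reads. In the bin from 12930001 to 12931000, about 4 kb before the Airn start, 4 of 5 listed sites were non-CG, on 15 reads in all.

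Among dyads of the domain listed on both strands with unequal counts, the minus strand had more reads in 199 of 355, or 56.1% (50.7 to 61.3), against 49.9% on chromosome 17. The share was 59.3% (51.7 to 66.6) beyond the Igf2r start, 56.1% (46.1 to 65.7) in Igf2r alone and 47.1% (35.1 to 59.4) in the overlap. The flanks had 49.1% (43.6 to 54.6) on the left and 51.2% (46.5 to 56.0) on the right. Neighbouring dyads share reads and sequence, so the intervals are too narrow by an unknown amount.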
